A study of Rattus norvegicus with 6 samples.

Results

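The stretch of rat chromosome 13 that lies 2.7 to 10 Mb above a promoter viewpoint was examined in 4C-seq libraries of cardiac endothelial cells. It was defined by position alone, as every EcoRI fragment of chromosome 13 whose start lies from 58295000 to 65570180 in the rn5 build. These were 2245 of the 34453 EcoRI fragments of chromosome 13 (6.52%) and of 794443 fragments in all. They run from 58296190 to 65570659, a length of 7.27 Mb, with a median fragment length of 2117 bp (range 7 to 37216 bp). "Above" means towards higher coordinates, and distances are counted from position 55570181. Coordinates are those of the deposited tables and may lie 1 base from those of a genome browser. No rn5 annotation was used here, so positions in the stretch are given without genes.

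In 4C-seq, formaldehyde holds neighbouring chromatin together, a restriction enzyme cuts it, and ligation then joins fragments that were close in the nucleus. Fragments joined to a chosen viewpoint are then amplified and sequenced. Contact frequency normally falls steeply with distance along the chromosome. At distances of several megabases most fragments are joined to the viewpoint rarely or not at all in a given library, and the usual measure there is the share of fragments that were captured at least once. Joins to other chromosomes give the background of a library.

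Libraries came from 2 rat strains. SS (SS/JrHsdMcwi) is the Dahl salt-sensitive strain. SS13BN (SS-13BN/Mcwi) is a consomic strain that has chromosome 13 of the Brown Norway rat on the SS background, so the whole stretch, like the viewpoint, is of Brown Norway origin in SS13BN and of SS origin in SS. In both strains the cells were cultured to passage 2, came from males and females pooled, and were fixed with 2% formaldehyde for 10 min. Each strain had 3 libraries. Replicate 3 of each strain lists chromosome 13 at 0 throughout, which leaves 2 libraries per strain here. The labels do not say whether libraries of a strain were separate cultures, and p-values therefore rest on a spread between libraries that may be technical. Contact data hold no expression markers, so the labelled cell type could not be checked.

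The libraries differed in how much they captured. On chromosome 13, SS 1, SS 2 and SS13BN 1 captured 6758, 6752 and 6538 fragments, and SS13BN 2 captured 9414. On the other chromosomes the captured shares were 12.3%, 9.99%, 9.92% and 17.4% in the same order. Capture in the stretch means 1 or more reads on a fragment, and read numbers could not be recovered there. Around the viewpoint the deposited scores, described below, follow another rule. That part starts at 52000607 to 52028242 and ends before 58275225 or 58294971, depending on the library. There a fragment was taken as captured if its score was not 0, and the 2 definitions may differ. That part enters the totals of chromosome 13, its share beyond 2 Mb and the nearest part of the mirrored stretch below the viewpoint. SS13BN 2 captured the most fragments on chromosome 13 and on the other chromosomes, and comparisons below are given within a library or scaled to its total where that matters.

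The stretch was captured sparsely. In SS 1, 391 fragments were captured (17.4%, 95% Wilson interval 15.9% to 19.0%). In SS 2 there were 418 (18.6%, 17.1% to 20.3%), and in SS13BN 1 there were 425 (18.9%, 17.4% to 20.6%). SS13BN 2 had 655 (29.2%, 27.3% to 31.1%), and its interval does not overlap those of the other libraries. These intervals cover counting error only, since reads without molecular identifiers are not independent molecules. The mean over all libraries was 21.0% ± 5.47 (SD, n = 4), against 88.7% ± 2.88 (SD, n = 4) in the adjoining 1 to 2.7 Mb above the viewpoint. The stretch thus begins where nearly complete capture has ended. Around its lower bound, the fragment just outside, from 58294971, was captured in all libraries except SS 1, and the first inside, from 58296190, in all except SS13BN 1. The last fragment inside, from 65566815, and the next one outside, from 65570660, were captured in none of the 4 libraries.

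Capture fell with distance, but not evenly. From 2.7 to 3 Mb, 72 fragments were captured at 36.1%, 36.1%, 34.7% and 59.7% in SS 1, SS 2, SS13BN 1 and SS13BN 2. From 4 to 5 Mb, 303 fragments were captured at 19.1%, 21.8%, 22.1% and 33.7% in the same order. From 5 to 6 Mb the share was higher again in all 4 libraries, at 22.0%, 26.7%, 25.7% and 37.5% of 296 fragments. From 6 to 7 Mb it was lower, at 14%, 15.4%, 18.3% and 27.1% of 350 fragments. From 7 to 8 Mb it was 9.28%, 10.7%, 11.7% and 19.9% of 291 fragments, the lowest of the 8 distance classes in every library except SS13BN 1, where the 8 to 9 Mb class was lower (8.33% of 360 fragments). From 9 to 10 Mb it was 15.7%, 11.1%, 15.7% and 21.1% of 280 fragments.

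**Figure D1:**
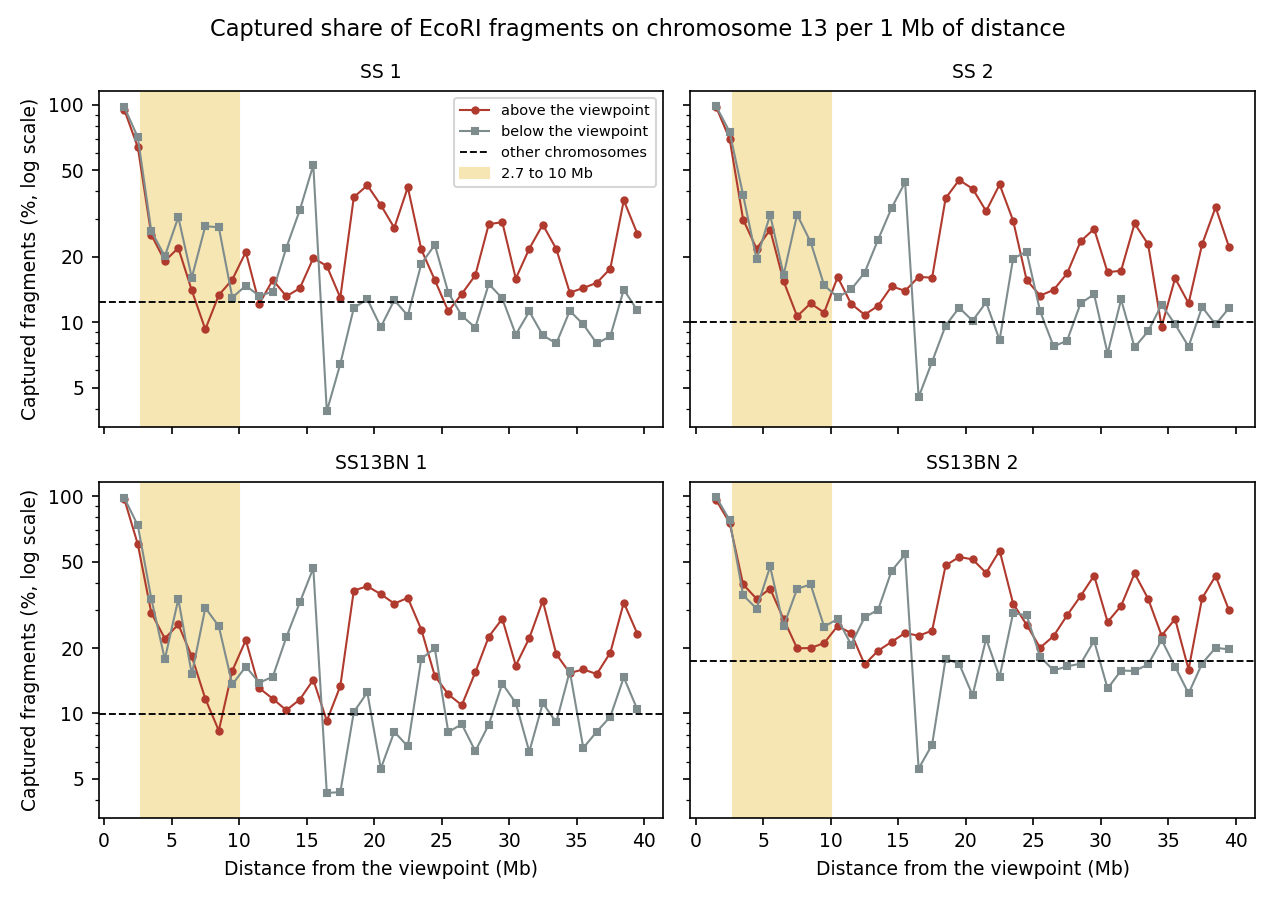
Captured share of EcoRI fragments (%, log scale) per 1 Mb of distance (Mb) above (circles) and below (squares) the viewpoint in each library, with the share on other chromosomes as a dashed line and 2.7 to 10 Mb shaded. Above the viewpoint, capture lay at 0.751 to 1.22 times the level of the other chromosomes between 7 and 9 Mb. Farther out it rose and fell again in all 4 libraries.

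Set against the other chromosomes of the same library, the near end of the stretch was captured 2.92 to 3.61 times as often, and the 5 to 6 Mb class 1.78 to 2.67 times. From 7 to 8 Mb the ratio was 0.751, 1.07, 1.18 and 1.14 in SS 1, SS 2, SS13BN 1 and SS13BN 2. From 8 to 9 Mb it was 1.08, 1.22, 0.840 and 1.15. At these distances the ratio to chromosomes not linked to the viewpoint thus lay between 0.751 and 1.22, on both sides of 1. Beyond the stretch capture varied. The 8480 fragments from 10 to 40 Mb above the viewpoint were captured 1.73, 2.12, 2.03 and 1.77 times as often as the other chromosomes, and the stretch as a whole was captured at 0.813, 0.879, 0.940 and 0.948 times the share of those more distant fragments. The 1 Mb class centred at 13.5 Mb, with 13.2%, 11.9%, 10.3% and 19.4%, was no higher in any library than the higher of the classes from 7 to 9 Mb, so the low level also occurred outside the stretch.

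Over its whole length, the stretch was captured more often than the other chromosomes in each library. The ratios were 1.41, 1.86, 1.91 and 1.67 in SS 1, SS 2, SS13BN 1 and SS13BN 2, a mean log2 ratio of 0.77 ± 0.20 (SD, n = 4) or 1.70-fold. The exact two-sided sign-flip permutation test gave p = 0.125, the smallest that 4 libraries allow, so the threshold of 0.05 could not be reached by design. Fragment length affects capture, and the stretch has slightly shorter fragments than the other chromosomes (median 2117 against 2189 bp). With the capture of other chromosomes taken within 10 length classes, 275, 223, 221 and 388 captured fragments were calculated for SS 1, SS 2, SS13BN 1 and SS13BN 2. The observed numbers were 1.42, 1.88, 1.93 and 1.69 times these (mean log2 ratio 0.78 ± 0.20, SD, n = 4; exact permutation p = 0.125, again the smallest possible). The difference in length thus left the ratio nearly unchanged.

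Within the stretch, capture rose with fragment length up to about 4 kb and was low in the longest fragments. The 436 fragments of up to 500 bp were captured at 12.04% ± 3.48 (SD, n = 4) and the 547 fragments of 2001 to 4000 bp at 26.5% ± 6.28. The 34 fragments over 16 kb were captured at 8.82% ± 3.40, which is 2, 4, 2 and 4 fragments in SS 1, SS 2, SS13BN 1 and SS13BN 2. In the mirrored stretch below the viewpoint, 29 fragments of that length were captured at 37.1% ± 1.72, and on other chromosomes the share was 13.02% ± 2.83. The nearest part of the mirrored stretch was counted by scores other than 0. The long fragments lay farther out in this stretch, with 22 of 34 at 6 Mb or more against 13 of 29 below the viewpoint, and the part of distance in the difference was not tested. Over 145 windows of 50 kb, the mean fragment length hardly varied with the captured share (Spearman's rho 0.02 to 0.09 in the 4 libraries), while distance did (rho -0.55 to -0.37); windows of a library share its depth.

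The stretch was captured less often than the one at the same distances below the viewpoint. The 2076 fragments from 45572118 to 52850457 were captured at 24.1%, 26.2%, 25.7% and 35.5% in SS 1, SS 2, SS13BN 1 and SS13BN 2. The ratios of above to below were 0.722, 0.712, 0.736 and 0.823, below 1 in 4 of 4 libraries. The part of the lower stretch nearest to the viewpoint was counted by scores other than 0, so these ratios mix 2 measures in part. How much this lowers them was not tested. Distance classes from 4 Mb on, given below, are free of it. The mean log2 ratio was -0.42 ± 0.10 (SD, n = 4), a ratio of 0.747, with an exact two-sided sign-flip permutation p = 0.125, the smallest possible. The ratio was nearest to 1 in SS13BN 2, the library with the most captures, and the part of depth in it was not tested.

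The asymmetry lay mainly between 7 and 9 Mb. From 7 to 8 Mb the ratio of above to below was 0.335, 0.341, 0.382 and 0.532 in SS 1, SS 2, SS13BN 1 and SS13BN 2. From 8 to 9 Mb it was 0.488, 0.523, 0.331 and 0.510. On the lower side, capture at those distances stood at 31.8% ± 4.11 and 28.8% ± 7.14 (SD, n = 4), against 12.9% ± 4.80 and 13.5% ± 4.85 above the viewpoint. The ratio was also below 1 in all 4 libraries from 5 to 6 Mb (0.722 to 0.855). From 2.7 to 3 Mb it was 0.561 to 0.856, but there the lower side counts scores other than 0. That ratio thus compares unlike measures, as does the ratio from 3 to 4 Mb in part. In the 4 remaining classes the libraries lay on both sides of 1. These classes were not tested separately.

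**Figure D2:**
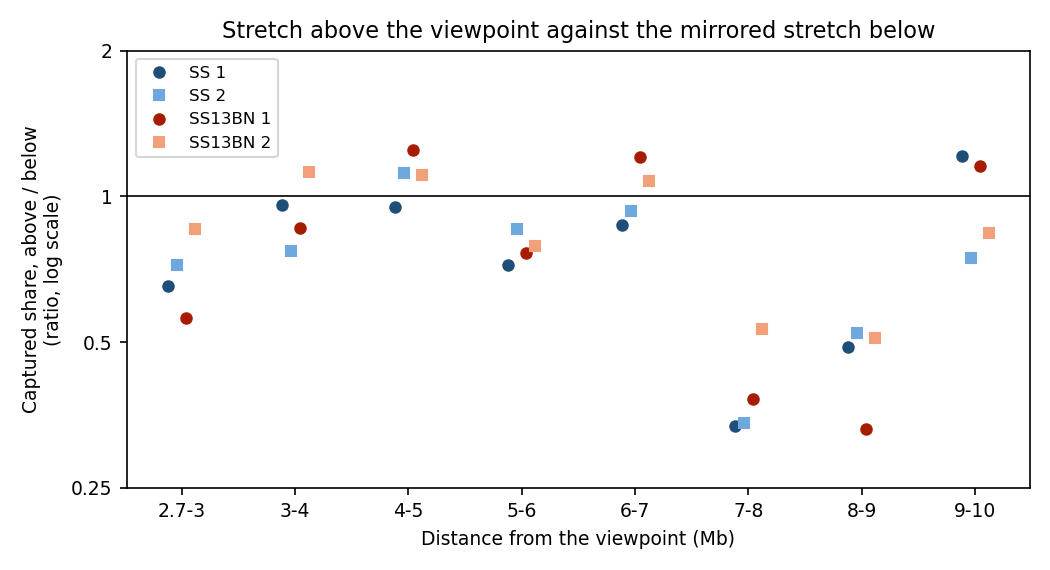
Ratio (log scale) of the captured share above the viewpoint to that below it in 8 distance classes, 1 point per library. All 4 libraries lie between 0.331 and 0.532 in the classes from 7 to 9 Mb, and on both sides of 1 from 3 to 5 Mb, 6 to 7 Mb and 9 to 10 Mb.

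At the level of single fragments, most captures were not repeated. Of the 2245 fragments, 1138 (50.7%) were captured in no library, 577 in 1, 333 in 2, 142 in 3 and 55 (2.45%) in all 4. In the mirrored stretch 117 of 2076 (5.64%) were captured in all 4. The 55 fragments had a median length of 4461 bp, longer than the median of the stretch. They were denser near the viewpoint, with 38 of 964 fragments under 6 Mb (3.94%) and 17 of 1281 farther out (1.33%). In 5 places 2 adjacent fragments were both captured in every library. The pair nearest to the viewpoint lay at chr13:58615470-58624563, 3.05 Mb away, and the farthest at chr13:62512798-62518455, 6.94 Mb away.

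Pairs of libraries of 1 strain did not stand out in the captured fragments they shared. SS 1 and SS 2 shared 143 captured fragments, 36.6% of those of SS 1 and 34.2% of those of SS 2. SS13BN 1 and SS13BN 2 shared 209, 49.2% of those of SS13BN 1 and 31.9% of those of SS13BN 2. SS 2 and SS13BN 2 shared 261, 62.4% of those of SS 2 and 39.8% of those of SS13BN 2. These percentages depend on how much each library captured, and SS13BN 2 captured the most. For the deposited scores, described below, Spearman's rho was 0.50 within SS, above that of every other pair. It was 0.27 within SS13BN and 0.26 to 0.42 between strains, over fragments whose score windows overlap. Across the 145 windows of 50 kb, the numbers of captured fragments correlated with Spearman's rho of 0.54 within SS, 0.45 within SS13BN and 0.38 to 0.55 between strains. These window values describe windows that share the fall with distance and that hold unequal numbers of fragments, the same in every library.

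Capture in 50 kb windows ranged from 0% to 83.3%. The highest mean share among windows of at least 10 fragments was at chr13:58350001-58400000, 2.80 Mb away, where 10, 7, 8 and 15 of 18 fragments were captured in SS 1, SS 2, SS13BN 1 and SS13BN 2 (55.6% ± 19.8, SD, n = 4). The next was chr13:58750001-58800000 with 1, 5, 8 and 8 of 11 fragments (50% ± 30.2), where SS 1 stands far below the others. Near 5 Mb, chr13:60600001-60650000 had 5, 7, 7 and 9 of 15 fragments (46.7% ± 10.9), with the smallest spread of the 5 highest windows. The window chr13:58450001-58500000 followed with 3, 5, 7 and 8 of 13, and chr13:60800001-60850000 with 6, 5, 4 and 9 of 14. The 5 highest windows thus lay at 2.80 to 5.25 Mb, and the windows near 5 Mb fall in the class in which capture was higher than in the class before it.

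The lowest window was empty in every library. At chr13:61800001-61850000, 6.25 Mb away, 0 of 17 fragments were captured in each library. An approximate upper limit, taken as 3 of the fragments examined, is a share of 17.6% in any library. That limit leaves aside the choice of the window for its low capture. The window lies in the longest run without a capture in all 4 libraries, 21 fragments over 62.7 kb from 61790716 to 61853428. At chr13:63200001-63250000 there was 1 captured fragment of 10, in SS13BN 1, and at chr13:59400001-59450000 there were 3 of 14, all in SS13BN 2. At chr13:65100001-65150000, 1 of 11 was captured in SS 1 and 2 in SS13BN 1. At chr13:61950001-62000000, 3 and 5 of 27 were captured in SS13BN 1 and SS13BN 2 and none in SS. Of these low windows, chr13:59400001-59450000 lies at 3.85 Mb, nearer to the viewpoint than the others.

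**Figure D3:**
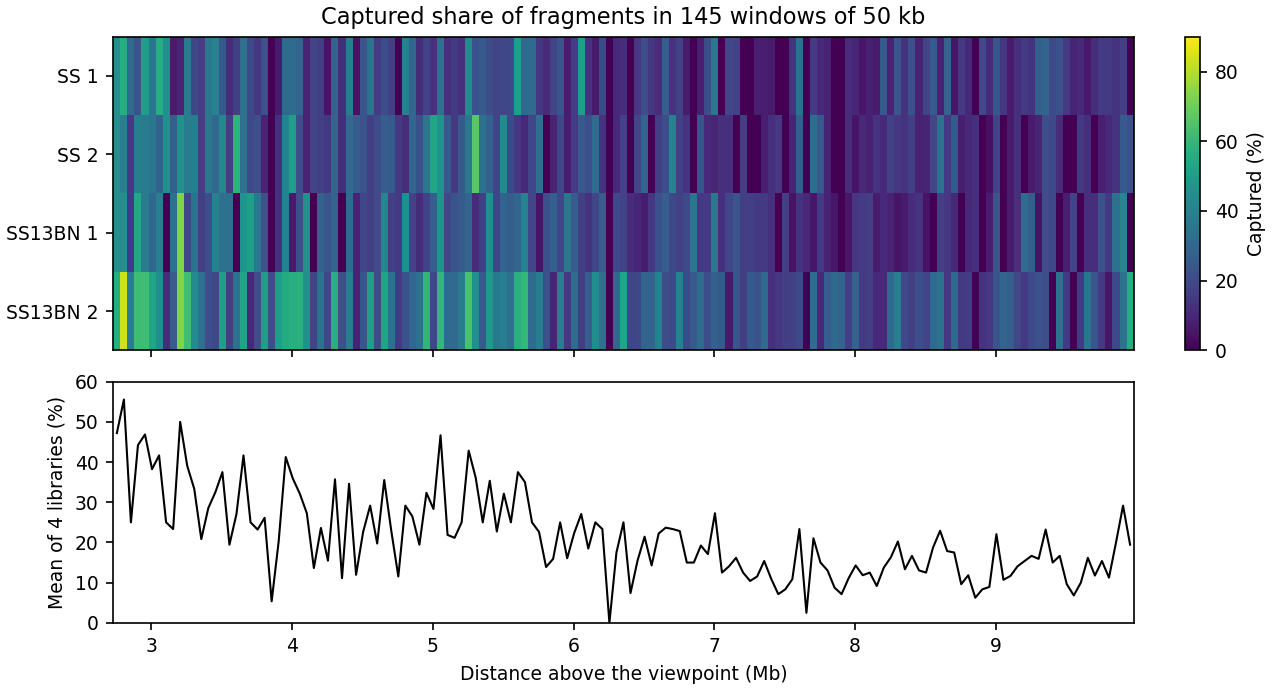
Captured share of fragments (%) in 145 windows of 50 kb against distance above the viewpoint (Mb), as colour for each library and as the mean of 4 libraries below. The highest windows lie at 2.80 to 5.25 Mb, and the window at 6.25 Mb is empty in all 4 libraries.

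The deposited score says how the captures in a window of 37 fragments compare with a local background of 3000 fragments, in SDs of a binomial count. Most of the stretch scored below its surroundings. The median score was -1.23, -1.26, -1.26 and -0.87 in SS 1, SS 2, SS13BN 1 and SS13BN 2, and 17.8%, 15.9%, 13.7% and 20.5% of fragments scored above 0. The background itself changed along the stretch. It held 43.5%, 45.6%, 45.0% and 52.5% captured fragments at the first fragment, where it includes the densely captured region nearer the viewpoint, and 14.7%, 13.4%, 14.5% and 22.6% at the last. The first 1499 fragments were captured at 19.5% to 33.4% and had median scores of -1.68 to -1.06, while the last 746, from 7.71 Mb, were captured at 11.3% to 20.6% and had median scores of -1.16 to -0.37. In each library the part with more captures had the lower median score.

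No fragment scored at least 2 in all 4 libraries. In 55 fragments at least 1 library did, and in 1 fragment more than 1 library did. The highest score of SS 1 (2.94) was at 64903638, of SS 2 (2.92) at 65566815, of SS13BN 1 (3.52) at 65425754 and of SS13BN 2 (2.84) at 58351790, so each library had its maximum at another place. Scores of -1 or less in all 4 libraries were found for 474 fragments in 40 runs. The longest run, 68 fragments at chr13:59662399-59894889, had mean scores of -3.12, -2.98, -2.11 and -2.05 in SS 1, SS 2, SS13BN 1 and SS13BN 2. The others were 47 fragments at chr13:59331256-59463897 and 46 fragments at chr13:60062484-60196610. All 3 start at 3.76 to 4.49 Mb, where the background is high.

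**Figure D4:**
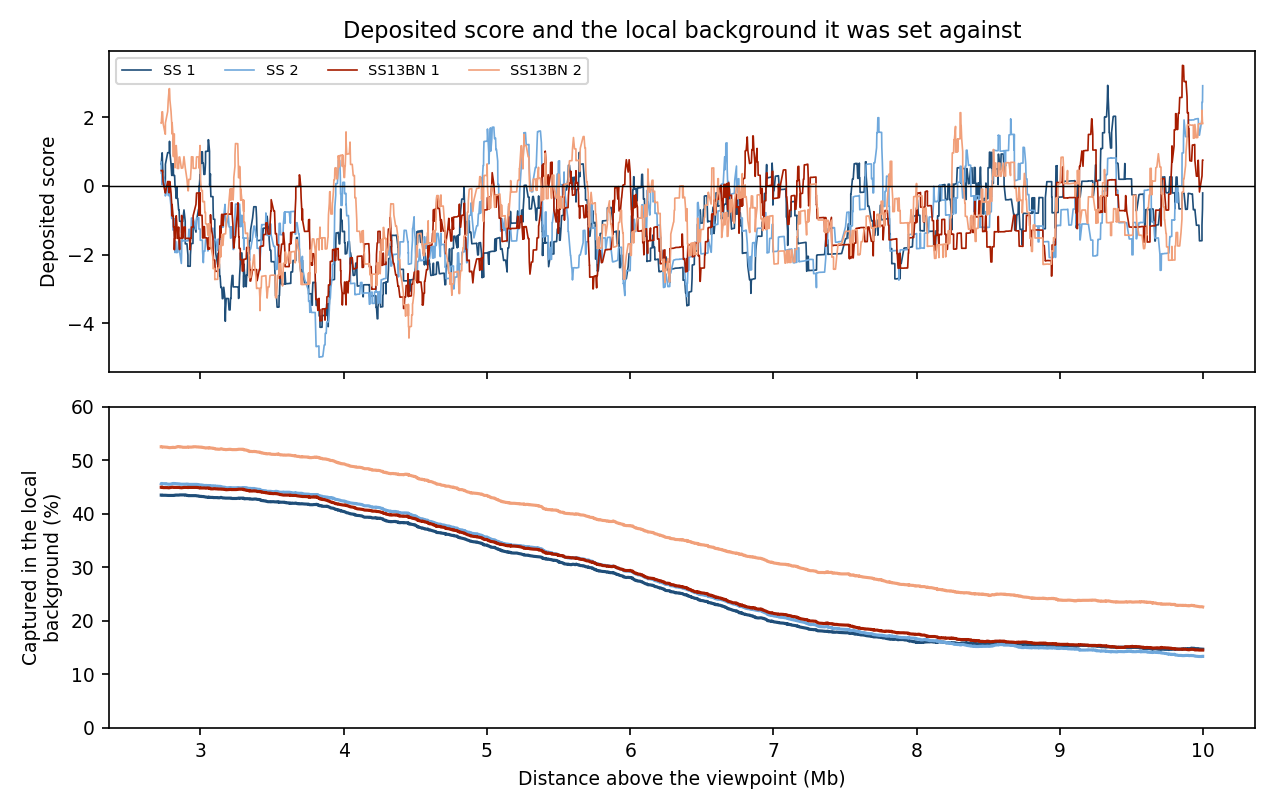
Deposited score of each fragment (upper) and captured share of the local background of 3000 fragments (%, lower) against distance above the viewpoint (Mb), 1 line per library. The background falls from between 43.5% and 52.5% to between 13.4% and 22.6%, and the lowest scores lie near 4 Mb.

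The comparison of strains asked whether the origin of chromosome 13 alters the contacts of the promoter. Over the whole stretch, SS had a mean captured share of 18.0% ± 0.850 (SD, n = 2), and SS13BN one of 24.1% ± 7.24 (SD, n = 2). SS13BN thus lay 6.04 percentage points higher (exact two-sided permutation p = 0.333), with a p that is the smallest that 2 against 2 libraries allow. It rested on SS13BN 2: without that library it was 0.913 points, and without SS13BN 1 it was 11.2 points. Relative to the other chromosomes of each library, the shares overlapped between strains, with a difference of 0.155 in the ratio (exact permutation p = 0.667). Relative to chromosome 13 beyond 2 Mb, they did not overlap, at 0.991 and 1.06 in SS against 1.12 and 1.15 in SS13BN (difference 0.105, exact permutation p = 0.333, the smallest possible).

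No 50 kb window of the stretch differed between strains at an adjusted p of 0.05. Of 145 windows, 136 passed the filter of a mean of at least 1 captured fragment and were tested with limma (Benjamini-Hochberg over 1995 windows of chromosome 13). The number called was 0, as on the whole chromosome (0%), and 6 had an unadjusted p under 0.05 (4.41%, against 2.66% over the chromosome). The median half-width of the unadjusted 95% interval was 1.20 on the log2 scale, so smaller differences were mostly not detectable even before adjustment. The adjustment over 1995 windows is stricter. Fitted differences of 2.72, 2.21 and -2.01, those with the smallest p in the stretch, did not pass it (limma adjusted p = 0.961). Both SS13BN libraries lay above both SS libraries in 45 of the 136 windows (33.1%, against 20.6% over the chromosome), and both SS libraries lay above both SS13BN libraries in 11 (8.09%, against 10.3%). The median log2 difference, SS13BN minus SS, was 0.16 in these windows and 0.01 over all windows tested. The counts are for values scaled to the captures of each library on chromosome 13, so equal numbers before scaling can count as apart. This went towards SS13BN at chr13:64350001-64400000, among others, with 2, 2, 2 and 3 captured in SS 1, SS 2, SS13BN 1 and SS13BN 2. It went towards SS at chr13:60050001-60100000, with 5, 5, 4 and 5 in the same order. Such windows were not counted apart. Scaled to the captures on the other chromosomes, the counts of windows without overlap were 35 and 12 in the stretch, and 316 and 219 over the chromosome.

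The 3 windows with the smallest p are described although none passed. At chr13:62400001-62450000, 6.85 Mb away, 0, 0, 7 and 5 of 20 fragments were captured in SS 1, SS 2, SS13BN 1 and SS13BN 2. By the same approximate limit, a count of 0 of 20 allows a share of up to 15.0% in each SS library, again leaving aside how the window was chosen. The fitted log2 difference was 2.72 (SE 0.54, limma adjusted p = 0.961), a value that depends on the pseudocount of 1 because both SS libraries are at 0. Without SS 2 this window had an adjusted p of 0.0178, as did chr13:58750001-58800000. At chr13:61950001-62000000, with 0, 0, 3 and 5 of 27 fragments, the fitted log2 difference was 2.21 (SE 0.54, adjusted p = 0.961), with the same dependence. At chr13:58650001-58700000 the direction was opposite, with 4, 4, 0 and 1 of 9 fragments (log2 difference -2.01, SE 0.53, adjusted p = 0.961).

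Windows captured in both SS13BN libraries but in neither SS library lay in the middle of the stretch. There were 5 windows with no capture in either SS library and captures in both SS13BN libraries, at 61950001, 62400001, 62800001, 63050001 and 63400001, and 0 windows of the reverse kind. These were 3.45% and 0% of 145 windows, against 24 (1.06%) and 9 (0.397%) of 2267 over chromosome 13. The window at 63050001 held only 6 fragments, with 1 captured in SS13BN 1 and 1 in SS13BN 2. These numbers are not scaled, SS13BN 2 captured the most fragments, and the part of depth in them was not tested. The longest run without capture in both SS libraries was 37 fragments over 123 kb at chr13:63397727-63520795, where SS13BN 1 captured 1 fragment and SS13BN 2 captured 9. Counted by fragment, 65 (2.90%) were captured in both SS13BN libraries and in neither SS library, and 35 (1.56%) the other way. Beyond 2 Mb over the chromosome these shares were 2.06% and 0.968%. Grouped by replicate number instead of strain, 112 fragments were captured in both replicates 2 only and 38 in both replicates 1 only, and both replicates 2 include SS13BN 2, the library with the most captures.

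In 500 kb windows, 0 of 14 differed between strains at an adjusted p of 0.05, as on the whole chromosome (0% of 225), and 2 had an unadjusted p under 0.05 (14.3%, against 4.89% over the chromosome). At chr13:61500001-62000000, 20, 23, 30 and 45 of 170 fragments were captured in SS 1, SS 2, SS13BN 1 and SS13BN 2 (log2 difference 0.54, SE 0.23, limma adjusted p = 0.631). At chr13:62500001-63000000, 17, 11, 25 and 28 of 137 were captured (log2 difference 0.70, SE 0.34, adjusted p = 0.806). Both SS13BN libraries lay above both SS libraries in 5 of 14 windows (35.7%, against 23.6% over the chromosome) and the reverse held in 0 (against 11.1%). Scaled to the captures on the other chromosomes, the counts were 3 and 0 of 14 in the stretch, and 29 and 24 of 225 over the chromosome. The 3 adjacent windows from 61500001 to 63000000 were among the 5.

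**Figure D5:**
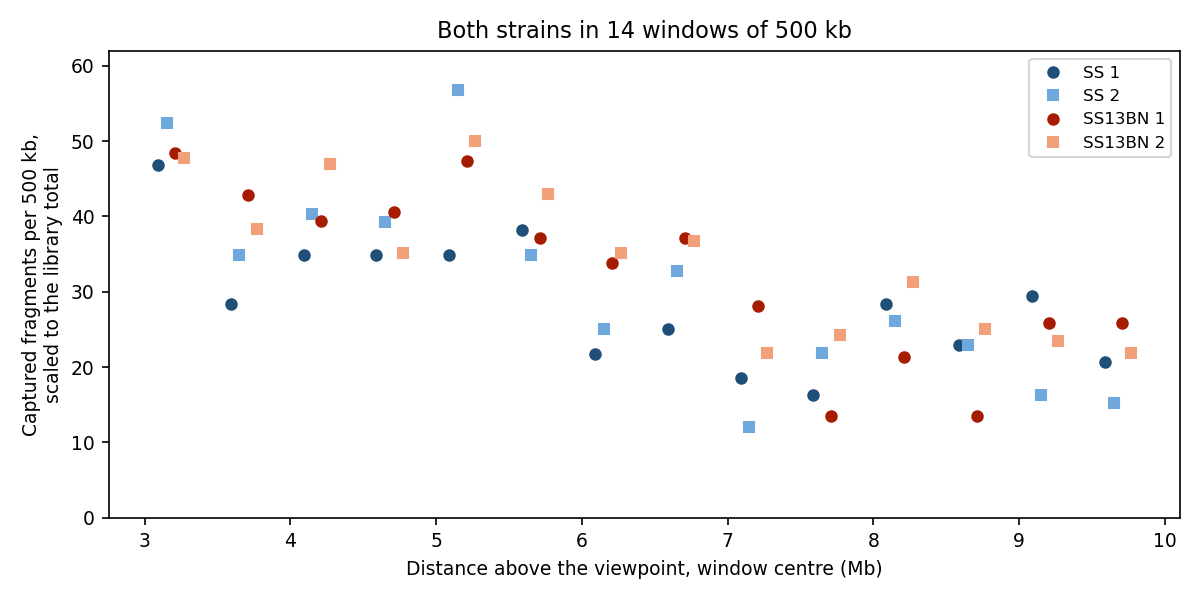
Captured fragments per 500 kb window, scaled to each library's total on chromosome 13, against distance above the viewpoint (Mb), 1 point per library. In the 3 windows from 6.18 to 7.18 Mb both SS13BN points lie above both SS points, and no window passed an adjusted p of 0.05.

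Those 3 windows were singled out after their values were seen, so their sum is given without a test. They are the longest run of adjacent windows in which both SS13BN libraries lay above both SS libraries. With values scaled to chromosome 13, a lack of overlap between strains in their sum follows from that choice. Of 479 fragments, the SS libraries captured 12.5% and 13.4%, and the SS13BN libraries captured 18.4% and 25.1%. Divided by the captured share of chromosome 13 beyond 2 Mb in the same library, these values were 0.713, 0.763, 1.09 and 0.983. Divided by that of the other chromosomes, they were 1.01, 1.34, 1.85 and 1.44, where the same choice applies. In the 820 fragments from 63000001 on, which that choice left out, the first ratio was 0.757, 0.682, 0.642 and 0.800, and the strains overlapped. In those fragments capture was 1.08, 1.20, 1.09 and 1.17 times that of the other chromosomes, so both strains were near the background of the library there.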

How the data were processed

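The submitters' processing notes name CASAVA 1.8 and the rn5 build. The aligner, read filters and scoring program were not given in the sources used here. In each library, the authors deposited 1 score per EcoRI fragment. From the values, the deposited score in this stretch compares captures in a window of 37 fragments with those of a background of 3000, in binomial SDs. Solving these scores gave captured states that rebuilt 100% of the windows lying wholly in the part of chromosome 13 scored this way. The states were solved from those same windows. Around the viewpoint the score could not be solved so, and a score other than 0 was taken as capture. With both kinds of state, 2228, 2231, 2235 and 2240 of 2245 windows of the stretch met their count in SS 1, SS 2, SS13BN 1 and SS13BN 2. In each library 6 to 13 scores of the stretch matched more than 1 pair of window and background counts. The pair used lay within 1 captured fragment of the neighbouring background, and the next pair at least 191 away. The rn5 assembly is of the Brown Norway rat, so closeness to the reference and the origin of chromosome 13 cannot be told apart.

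Captured fragments per window, scaled to the library total on chromosome 13, were tested as log2(value + 1) with limma 3.58.1 in R 4.3.3 (trend, Benjamini-Hochberg), without fragments within 10 kb of the viewpoint. A fold on this scale understates changes of low values. Single values were compared by exact permutation. The steps were tested on simulated data. Windows named are the 5 highest and 5 lowest in mean share with at least 10 fragments, the 3 with the smallest p by strain, and the 3 longest runs scoring -1 or less in all libraries; other positions were chosen after their values were seen. The stretch, rules and tests were chosen with earlier results of these data known. Python 3.11.15 and matplotlib 3.10.9 were used.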

Additional observations from a re-analysis of the deposited data

How the results depend on the processing

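Of 48 alternative values of the 6 comparisons, 47 kept their direction and their side of the threshold, or stayed at a count of 0 windows. The exception was the count of 50 kb windows of the stretch that differed between strains, which was 0 to 2 when a library was left out. It was 2 without SS replicate 2, where the lone SS library is assumed to vary like the others. Over all of chromosome 13, where 0 windows were called with all libraries, 8 windows of 50 kb were called without SS replicate 2, and 37 of 50 kb and 9 of 500 kb without SS13BN replicate 1, none of these 37 and 9 in the stretch. A single 500 kb window outside the stretch was called with no filter on low windows. The cause was not tested. With a replicate block the count was 0 for both window widths. Only 2 pairs of numbers exist, and their deviations correlated with r = 0.12 over 1995 windows, so the numbers were not taken as pairs. Leaving out a library moved the strain difference in captured share between 0.913 and 11.2 points. The exact permutation tests, over 2 against 2 or over 4 libraries, could not reach 0.05. Presence or absence of capture limits what single windows can show.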
